A study of Homo sapiens with 4 samples.

Results

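Cyclic nucleotide phosphodiesterases are the enzymes that hydrolyse cAMP and cGMP and so end the signals these messengers carry. The set described here held 10 genes, PDE7B, PDE7A, PDE3A, PDE3B, PDE4A, PDE4B, PDE4D, PDE5A, PDE8A and PDE10A, out of 18417 genes on the array. They were chosen by symbol, with results of the shDBC1 against shNS contrast already known. Their differences are therefore given as a description and carry no test. All 10 were measured, each by 1 probe set, and 7 passed the filter on dim genes, a mean log2 intensity of 6.58 over the 4 arrays, the 25th percentile of all genes. PDE3A, PDE3B and PDE5A lay below it.

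The study measured MDA-MB-231 cells, an established human triple-negative breast cancer line of mesenchymal type, on 4 Affymetrix arrays. The cells of 2 arrays carried a control hairpin RNA of no specific target (shNS), and those of the other 2 one directed at DBC1 (shDBC1), a nuclear protein whose gene is now named CCAR2. Both lines received no further treatment, and the design text describes the replicates as independent and biological. The labels name 1 control hairpin and 1 hairpin against DBC1, so an effect of this hairpin's sequence and one of DBC1 loss cannot be told apart. All values are log2 intensities that the authors normalised by RMA, and a difference is always shDBC1 minus shNS on that scale.

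cAMP is made by adenylyl cyclases downstream of G protein-coupled receptors and acts through protein kinase A, the EPAC exchange factors and the transcription factor CREB. The PDE4, PDE7 and PDE8 families hydrolyse cAMP, PDE5A hydrolyses cGMP, and the PDE3 and PDE10 enzymes take both. Genes of several of these families, PDE4 above all, start from alternative promoters and give many isoforms, which a probe set read over the whole gene does not separate. CREB binds the palindromic cAMP response element.

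Promoter windows of 300 bases, from 250 before to 50 after an annotated start, were read from RefSeq (GRCh38.p14) for 8 of the 10 genes, without PDE7A and PDE3B, 29 windows in all. The windows below are shown because they were the 2 of the 29 that held the full element TGACGTCA. PDE7B had a single window (chr6:135851451-135851750, plus strand), and PDE4A had 5, of which the one printed is chr19:10416523-10416822, plus strand. Capitals mark TGACGTCA and its shorter core TGACG on either strand, where CGTCA is the core read on the opposite strand and the full element holds a core on each.
PDE7B: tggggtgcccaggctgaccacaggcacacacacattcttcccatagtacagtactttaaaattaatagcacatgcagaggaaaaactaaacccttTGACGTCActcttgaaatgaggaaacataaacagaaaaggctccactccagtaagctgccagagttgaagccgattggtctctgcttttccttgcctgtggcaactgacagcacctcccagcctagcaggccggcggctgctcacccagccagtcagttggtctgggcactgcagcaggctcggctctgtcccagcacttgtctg
PDE4A: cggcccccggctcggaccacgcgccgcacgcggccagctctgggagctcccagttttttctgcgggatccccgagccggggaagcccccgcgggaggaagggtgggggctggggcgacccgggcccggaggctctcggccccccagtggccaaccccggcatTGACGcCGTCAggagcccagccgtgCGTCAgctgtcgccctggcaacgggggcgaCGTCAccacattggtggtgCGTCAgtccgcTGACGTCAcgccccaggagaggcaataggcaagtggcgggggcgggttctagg
In the PDE7B window the element began at position -155, with the start at position 0, and both cores found there lay inside it. In the PDE4A window it began at -3, and 7 cores were found in all, the first beginning at -88. Among all 35116 windows of this length in the table, 1.85% held TGACGTCA and 24.6% held TGACG on either strand. For the core, 4 of the 29 windows matched, 1 each in PDE7B, PDE4A, PDE4D and PDE5A. The letters CCGGAAG, part of the site that ETS factors bind, searched on both strands, occurred in 10.3% of all windows and in 6 of the 29, from PDE4A, PDE4B, PDE5A and PDE8A. The PDE8A windows with a match overlap and hold the same letters of the genome, which are counted once for each window. These matches are letters in a window and show neither binding nor use of a start in these cells.

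The arrays had median log2 intensities between 7.32 and 7.40. CCAR2, the hairpin's target, read 9.62 and 9.41 in shNS and 8.76 and 8.16 in shDBC1, a difference of -1.06 (SE 0.23, limma adjusted p = 1). All 8 markers of the line passed the filter, with VIM (vimentin) between 12.44 and 12.65 and CD44 between 12.76 and 12.99. SPARC, from the same list, was far lower, between 6.79 and 7.37, near or below the array medians. Of 8 luminal or epithelial genes 6 also passed the filter, among them KRT18 (11.81 to 11.96), GATA3 (8.46 to 9.04) and EPCAM (8.39 to 9.61). ESR1 and PGR (the oestrogen and progesterone receptors) did not. Of the markers of other cells, the filter was passed by 3 of 4 for endothelial cells, 2 of 4 measured for leukocytes, 1 of 3 for the embryonic kidney line and 1 of 4 for fibroblasts. CD14 read up to 9.59 and PECAM1 up to 8.23, while PTPRC, DCN and LIN28B were at most 4.64 on any array. Across 13813 tested genes limma called 0 at an adjusted p under 0.05 (0% of genes, smallest adjusted p 0.589) and 475 at an unadjusted p under 0.05 (3.44%). Both shDBC1 arrays lay below both shNS arrays for 13.2% of tested genes and above them for 11.6%. With 2 arrays against 2, an exact two-sided permutation test of a single gene cannot go below p = 0.333.

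PDE7B, a cAMP-specific enzyme of high affinity, had the largest difference of the 10 genes. Its probe set (8122222) read 10.11 and 10.31 in the shNS arrays and 8.92 and 8.62 in the shDBC1 arrays. Both shDBC1 arrays lay far below both controls, and the groups did not overlap. The means were 10.21 ± 0.14 and 8.77 ± 0.21 (SD, n = 2), a difference of -1.44 (SE 0.15), 2.72-fold lower or 36.8% of the control intensity. The 4 pairings of an shDBC1 with an shNS array gave differences from -1.69 to -1.20. By negative difference PDE7B stood at rank 5 of the 13813 tested genes, which is how it came to be chosen.

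PDE7A, the paralog that makes up the rest of the PDE7 family, stayed near its control level. It read 7.25 and 7.44 in shNS and 7.36 and 7.34 in shDBC1. Both shDBC1 values lay between the 2 shNS values. The difference was 0.0055 (SE 0.12), and it turned to -0.019 at the lowest under another scaling of the arrays, so it has no settled sign.

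**Figure D1:**
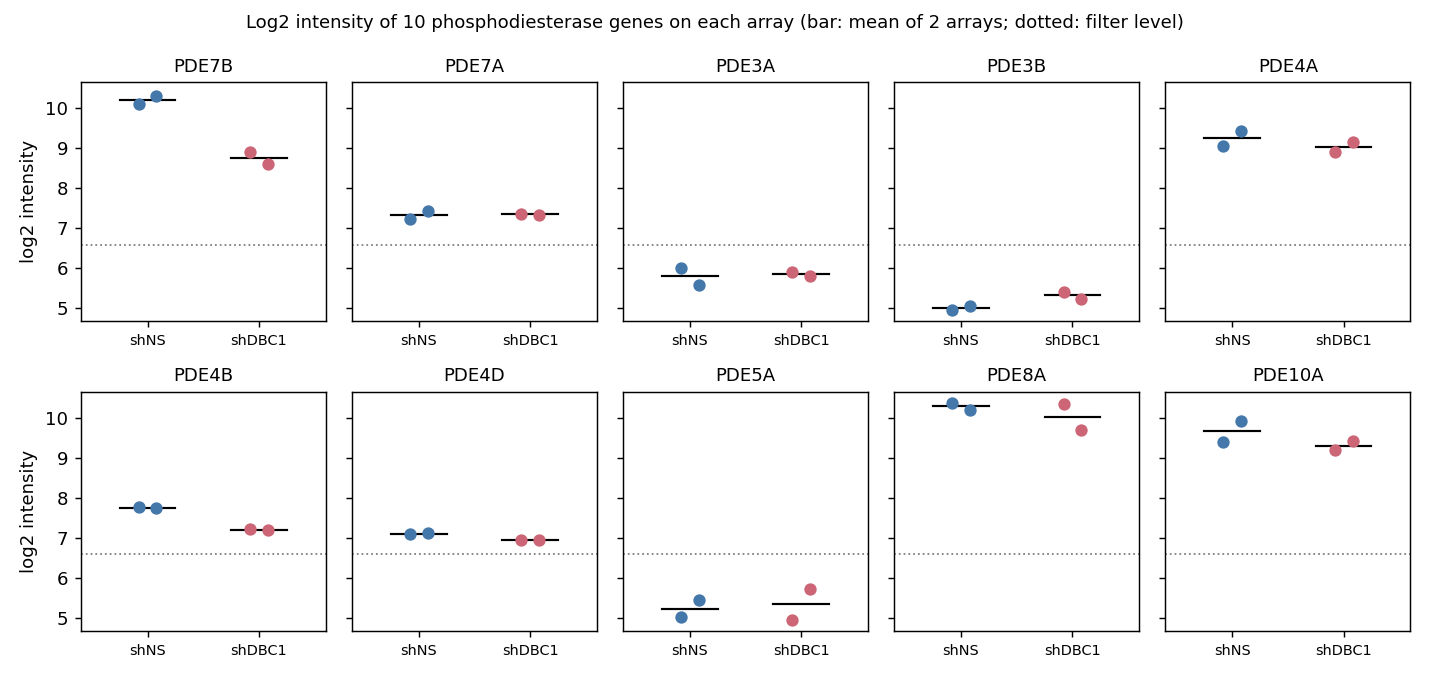
Log2 intensity (vertical axis) of the 10 phosphodiesterase genes in the 2 shNS (blue) and 2 shDBC1 (red) arrays, with replicate 1 left of replicate 2 and bars at the mean of the 2 arrays. PDE7B has means of 10.21 and 8.77, PDE4B of 7.76 and 7.21, and PDE3A, PDE3B and PDE5A lie below the dotted filter level of 6.58.

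The PDE4 enzymes, the cAMP-specific family that rolipram inhibits, all had negative differences among the 3 members of the set, and PDE4B had the largest. PDE4B read 7.77 and 7.74 in shNS and 7.21 and 7.20 in shDBC1. The arrays of each line were nearly alike (SD 0.018 in shNS and 0.012 in shDBC1), and the lines were well apart. The difference was -0.55 (SE 0.10), 1.46-fold lower or 68.3% of control, with pairings from -0.57 to -0.53.

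PDE4D read 7.09 and 7.12 in shNS and 6.94 on both shDBC1 arrays. The groups again did not overlap, but the distance was small, at -0.16 (SE 0.10) or 89.3% of control. PDE4A read 9.06 and 9.44 in shNS and 8.91 and 9.15 in shDBC1. Its groups overlapped, since the second shDBC1 array lay above the first shNS array. The difference of -0.22 (SE 0.18) was -0.026 without the second shNS array. The fourth gene of the family, PDE4C, was not in the set, and differed by -0.0021 (SE 0.12, limma adjusted p = 1).

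PDE8A, a cAMP-specific enzyme of very high affinity, rested on 1 array. It read 10.38 and 10.20 in shNS and 10.35 and 9.69 in shDBC1. The first shDBC1 array was as high as the controls and the second was low. The difference of -0.27 (SE 0.25) became 0.055 when the second shDBC1 array was left out and -0.60 when the first was.

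PDE10A, a dual-specificity enzyme best known from the striatum, read 9.40 and 9.93 in shNS and 9.19 and 9.41 in shDBC1. The groups met, with the second shDBC1 array just above the first shNS array. The difference was -0.37 (SE 0.22), or 77.5% of control. It was -0.10 without the second shNS array.

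The PDE3 genes, whose enzymes are inhibited by cGMP, and PDE5A, the cGMP-specific target of sildenafil, were dim in both lines. PDE3B read 4.96 and 5.06 in shNS and 5.42 and 5.24 in shDBC1. This was the only gene of the 10 with both shDBC1 arrays above both controls, with a difference of 0.32, and all of its values lay below the filter level. PDE3A read 6.01 and 5.59 in shNS and 5.91 and 5.81 in shDBC1. Its shDBC1 values lay between the controls, with a difference of 0.060. PDE5A read 5.02 and 5.44 in shNS and 4.94 and 5.72 in shDBC1. Its groups overlapped, and the difference of 0.10 became -0.28 when the second shDBC1 array was left out and 0.49 when the first was. How far these 3 genes stood above background was not analysed here.

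Over the 10 genes, 6 differences were negative and 4 positive, with a median of -0.19, and the 3 genes below the filter were all positive. The median was -0.12 without the second shNS array. Of the 7 genes above the filter 6 were negative, beside 47.7% of all tested genes, and 3 (PDE7B, PDE4B and PDE4D) had both shDBC1 arrays below both controls and 0 had both above, beside 13.2% and 11.6% of all tested genes. PDE7B was the 1 gene of the 7 that was 1.5-fold or more lower, beside 1.38% of all tested genes, and 0 were that much higher, beside 0.376%. The members were chosen with this contrast known, so nothing is read from these shares. The median difference of all tested genes was 0.0065.

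**Figure D2:**
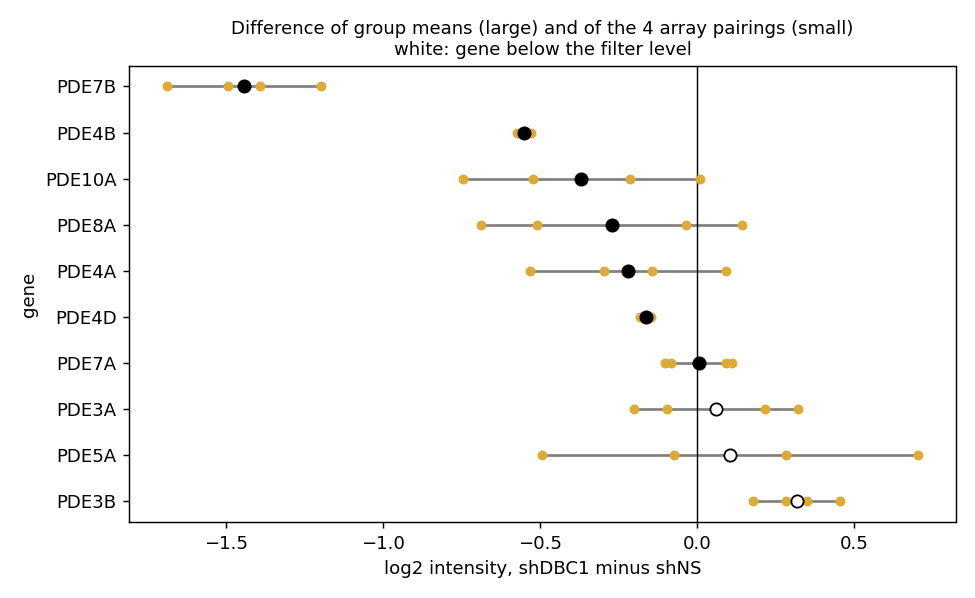
Difference in log2 intensity, shDBC1 minus shNS (horizontal axis), for each of the 10 genes. Large points are differences of the group means (white for genes below the filter level) and small points the 4 pairings of single arrays. The pairings of PDE7B run from -1.69 to -1.20 and those of PDE4B from -0.57 to -0.53, while those of PDE10A, PDE8A, PDE4A, PDE7A, PDE3A and PDE5A span 0.

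The remaining phosphodiesterase genes were listed with earlier results of these data known. Of their 8 tested members 0 passed the limma threshold in either direction, beside 0 of all 13813 tested genes. Of 14 genes listed, 13 were measured and 5 of those were below the filter. Among the tested genes 5 were negative and 3 positive, with a median of -0.0040. PDE9A, a cGMP-specific enzyme, differed by 0.40 (SE 0.22, limma adjusted p = 1), from 8.53 and 9.04 in shNS to 9.04 and 9.33 in shDBC1. Leaving out 1 array gave 0.15 to 0.66. PDE8B, the paralog of PDE8A, differed by -0.38 (SE 0.25, limma adjusted p = 1), from 6.65 and 7.13 to 6.27 and 6.76, with overlapping groups and a range of -0.62 to -0.13 with 1 array left out. PDE6G and PDE6B, which encode subunits of the photoreceptor enzyme, differed by 0.15 and 0.081.

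Upstream of the phosphodiesterases, limma called 0 of 11 tested cyclase and export genes and 0 of 18 tested G protein and receptor genes. Across all 13813 tested genes it also called 0, so these counts do not set the lists apart. ADCY9, an adenylyl cyclase, read 9.83 and 9.93 in shNS and 9.50 and 9.59 in shDBC1, a difference of -0.34 (SE 0.11, limma adjusted p = 1). Its groups did not overlap. ABCC5 and ABCC4, transporters that can export cyclic nucleotides, differed in opposite directions. ABCC5 read 8.17 and 8.12 in shNS and 8.54 and 8.47 in shDBC1 (0.36, SE 0.11, limma adjusted p = 1). ABCC4 read 9.39 and 9.36 against 9.17 and 9.11 (-0.23, SE 0.10, limma adjusted p = 1). ADCY6, another cyclase, differed by -0.11. In the cyclase and export list 4 of 11 genes had both shDBC1 arrays below the controls and 1 had both above, beside 13.2% and 11.6% of all tested genes, with a median of -0.033.

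Among the receptors, ADORA2B, the low-affinity adenosine receptor that couples to the stimulatory G protein, differed by 0.22 (SE 0.12). ADORA1, an adenosine receptor that couples to inhibitory G proteins, also differed by 0.22 (SE 0.15). Each had both shDBC1 arrays above both controls, as did 11.6% of all tested genes. GNAI1, an inhibitory G protein subunit, differed by 0.39 (SE 0.27) with overlapping groups, a value that was 0.067 without the first shNS array. The prostaglandin E2 receptor gene PTGER4 differed by -0.21 (SE 0.17), and this list had 8 negative and 10 positive differences around a median of 0.042. The limma adjusted p of each was 1.

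Downstream, 0 of 13 effector genes and 0 of 12 anchoring and partner genes passed the limma threshold. The same held for 0 of 13 CREB factors and coactivators and 0 of 18 cAMP-responsive transcripts, beside 0 of all 13813 tested genes. PKIA, which encodes an inhibitor of protein kinase A, read 7.24 and 7.58 in shNS and 7.10 and 7.07 in shDBC1 (-0.33, SE 0.15, and -0.15 without the second shNS array). The catalytic subunit gene PRKACA differed by -0.12 (SE 0.10) and the regulatory subunit gene PRKAR1B by 0.092. PRKAR2A, another regulatory subunit gene, differed by -0.30 (SE 0.24) and by 0.0064 without the second shDBC1 array. The effector list had a median of -0.039, with 3 of 13 genes below on both arrays and 0 above, beside 13.2% and 11.6% of all tested genes.

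A-kinase anchoring proteins hold protein kinase A, and often phosphodiesterases, at fixed places in the cell. AKAP6, which in heart muscle anchors a PDE4D isoform, differed by -0.44 (SE 0.37) with overlapping groups, a value that was -0.033 without the second shNS array. AKAP13 differed by -0.11, AKAP11 by 0.10 and PDE4DIP (myomegalin, a partner of PDE4D) by -0.093. The CREB list had 11 negative and 2 positive differences, beside 47.7% negative among all tested genes, with a median of -0.083. The mean of the list was 9.95 and 9.91 in shNS and 9.92 and 9.77 in shDBC1. Only the second shDBC1 array was below both controls. CREB5 differed by -0.15, the CREB coactivator gene CRTC1 by -0.14, the salt-inducible kinase gene SIK3 by -0.12 and the phosphatase subunit gene PPP2CA by -0.12. Without the second shDBC1 array CRTC1 differed by -0.032, SIK3 by -0.031 and PPP2CA by -0.0081, while CREB5 differed by -0.20. In the whole list 2 of 13 tested genes, CREB5 and CRTC1, had both shDBC1 arrays below the controls. In 0 genes both lay above, beside 13.2% below and 11.6% above among all tested genes.

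Transcripts that cAMP can induce were split evenly, with 9 negative and 9 positive differences and a median of -0.0099. ID1, an inhibitor of helix-loop-helix factors, read 11.39 and 12.04 in shNS and 10.49 and 11.09 in shDBC1. The difference was -0.92 (SE 0.31, limma adjusted p = 1), and it was -0.60 without the second shNS array. DUSP1, a MAP kinase phosphatase, read 9.45 and 9.74 in shNS and 9.90 and 10.45 in shDBC1. The difference was 0.59 (SE 0.23, limma adjusted p = 1), and it was 0.31 without the second shDBC1 array. BDNF, a neurotrophin, differed by -0.23 (SE 0.20, and -0.018 without the second shNS array) and the stanniocalcin gene STC1 by 0.12 (SE 0.11).

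Over the joined pathway lists, 119 of 133 genes were measured and 92 tested. Of those, 13 had both shDBC1 arrays below both controls and 8 had both above, and 3 had an unadjusted limma p under 0.05 (ABCC5, ADCY9 and ID1). These counts correspond to 14.1% and 8.70% of the tested pathway genes for the 2 directions and 3.26% for the unadjusted p, beside 13.2%, 11.6% and 3.44% of all tested genes. The median difference was -0.036.

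**Figure D3:**
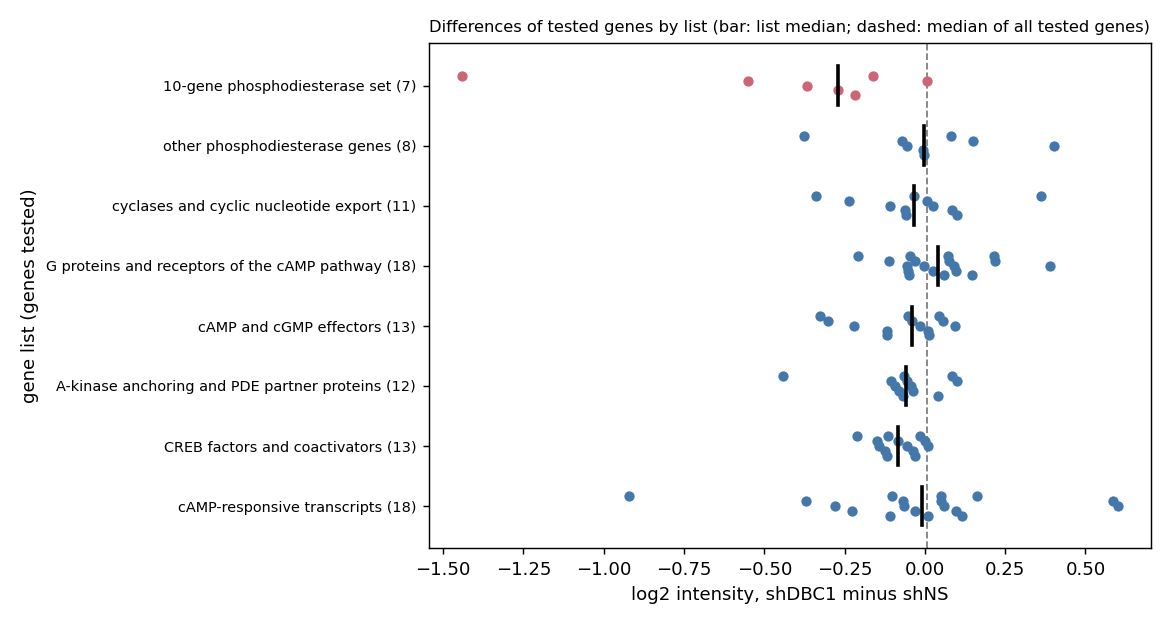
Difference in log2 intensity, shDBC1 minus shNS (horizontal axis), for each tested gene of the 10-gene set (red) and of 7 lists of the cyclic nucleotide pathway (blue), with the number tested in brackets. Bars mark list medians, which lie between -0.083 and 0.042 for the pathway lists, and the dashed line marks the median of all tested genes at 0.0065.

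The genes whose profile over the 4 arrays lay nearest to that of PDE7B were picked by the root mean square difference of their log2 values, each taken relative to its own shNS mean. Since these were chosen for likeness to PDE7B, their values are a description. CTNS, the lysosomal cystine transporter gene, was the nearest at 0.14, with 9.44 and 9.48 in shNS and 8.13 on both shDBC1 arrays. CXCL11, an interferon-inducible chemokine gene, followed at 0.19, with 7.52 and 7.49 against 6.36 and 5.60. MMP1, interstitial collagenase, stood at 0.27, with 11.38 and 11.05 against 9.95 and 10.01. The guidance ligand gene SLIT2 (0.28), SH3TC2 (0.29) and CSGALNACT1 (0.31), which encodes a chondroitin sulphate synthesis enzyme, differed by -1.06, -1.06 and -1.11. In all 6 genes both shDBC1 arrays lay below both controls, beside 13.2% of all tested genes. The choice by likeness to PDE7B leads to this, so nothing is read from it.

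**Figure D4:**
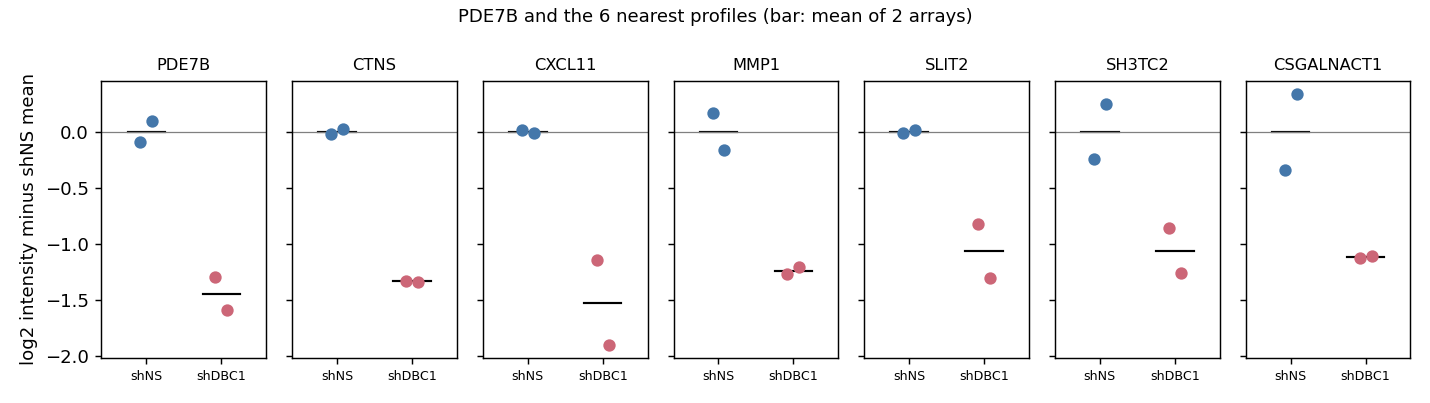
Log2 intensity minus the gene's own shNS mean (vertical axis) for PDE7B and the 6 genes with the nearest profiles, in the 2 shNS (blue) and 2 shDBC1 (red) arrays, with bars at the mean of the 2 arrays. The shDBC1 means lie between -1.52 (CXCL11) and -1.06 (SLIT2, SH3TC2), and that of PDE7B at -1.44.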

How the data were processed

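The deposited values are log2 intensities, 1 per probe set and array, which the authors made with GCOS and RMA (background correction, normalisation between arrays and summary of probes), per the submitters' processing notes. Tool versions, filters and the build are not given in these sources, and that the scale is log2 follows from the range of the values. RMA compresses differences of dim genes, and a shift common to all genes is lost in normalisation. Probe sets with exactly 1 symbol in the platform's annotation (19460 of 33297) were used, and each gene was represented by its brightest probe set. Genes with a mean under the 25th percentile were left out, and 13813 were tested with limma 3.58.1 in R 4.3.3 (group only, two-sided, Benjamini-Hochberg over all tested genes, threshold 0.05). SE values come from that fit. The procedure was tested on simulated data with independent noise on each array, which does not cover noise shared between arrays. With 2 arrays per group, their number limits the precision. The members, lists and tests were chosen with earlier results of these data known. Named genes were the 10 members, CCAR2, up to 4 tested genes of each pathway list by the smallest p, and the 6 profiles nearest to PDE7B, leaving out members, small RNAs and unnamed reading frames. PDE4C, the marker genes and the genes behind promoter counts were named outside that rule. Promoter sequences were RefSeq's, on GRCh38.p14. Alternatives were other filters, scalings, priors and probe set summaries, a replicate block, and leaving out each array.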

Additional observations from a re-analysis of the deposited data

How the results depend on the processing

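All alternatives were planned. PDE7B's difference ran from -1.46 to -1.42 under the other filters, scalings, priors and probe set summaries, and from -1.59 to -1.29 with 1 array left out. The median of the 10 members ran from -0.21 to -0.19 and from -0.22 to -0.12 in the same way. PDE7A, PDE3A, PDE5A and PDE8A changed sign when 1 array was left out, and PDE7A also under another scaling. PDE4B was -0.57 and PDE4D was -0.18 and -0.19 after median centring and cyclic loess, shifts larger than their very small spread between arrays. The limma count of 0 genes, and of 0 pathway genes, was the same under each alternative except the replicate block. With a replicate block limma called 113 genes (19 higher, 94 lower), among them 1 pathway gene, ID1 (limma adjusted p = 0.0199), and CCAR2 (limma adjusted p = 0.0232). What arrays of 1 replicate number have in common is not stated in the labels. Their deviations from the group means correlated at 0.653 across genes, which are not independent replicates, and the block left every difference as it was. Where same-numbered arrays deviate together, leaving out 1 array unbalances the groups, so the values with 1 array left out carry that shift too. PDE6G, PRKAR1B, PRKAR2A and PDE4DIP, none of them called, changed sign with 1 array left out. Fits with 1 array in a group assume that it varies like the other group. Signal over background could not be computed from these values and limits what PDE3A, PDE3B and PDE5A show.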
